A study of Mus musculus with 4 samples.

Results

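The Rab GTPases of the mouse were examined in a map of open chromatin from lymphoid tissue inducer (LTi) cells of Peyer's patches. The members were all protein-coding genes of the mm10 RefSeq annotation whose symbol is Rab followed by a number and at most 1 letter, which gave 59 of 21887 protein-coding genes outside mitochondrial DNA. The accessible regions, called islands, whose nearest protein-coding gene end lay within 50 kb and belonged to one of these genes numbered 55 of 16584. LTi cells are innate lymphoid cells that induce lymph nodes and Peyer's patches. The map was made by DNase-seq, which sequences the ends of DNA cut by the nuclease DNase I in open chromatin. The series holds 2 libraries from control mice (Tcf7+/+) and 2 from mice labelled Tcf7-KO (Tcf7fl/fl with Cre), all C57BL/6. The second genotype carries floxed alleles of Tcf7, which encodes the transcription factor TCF-1, and a Cre recombinase that deletes them. Lineage-negative cells were sorted as CD127+ and CCR6+ and as negative for KLRG1, NK1.1 and NKp46. Each library came from 300 such cells, whose chromatin was cut for 5 minutes by 0.3 U of the enzyme, and neither the age of the mice nor the number behind a library is stated.

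Every read count, fold and false discovery rate (FDR) of an island is the value in the authors' deposited table, which gives reads for a peak side and for a control side. Reads are quoted in that order throughout. No header or label ties either side to a library or a genotype, so the genotypes are not compared and no value has a replicate error. The fold divides the peak-side reads by 0.345 times the control-side reads. An island was called when its FDR was under 0.05. Brackets after a fold or a ratio hold the exact (Clopper-Pearson) 95% counting interval, which covers counting error only, since no replicate values are given. PCR copies are not told from separate molecules without molecular identifiers, so the interval may be too narrow. The lowest peak-side count in the table was 8, so weaker accessibility at genes with none assigned was not detectable. The islands of the table held 425134 peak-side and 645087 control-side reads, and library totals are not stated. Of 10 LTi marker genes, 9 had an island, where 49.2% of all protein-coding genes did. Among them were Il1r1 (129 and 103 reads), Kit (95 and 89 reads) and Id2 (88 and 152 reads). Ccr6, a gene of the sorting gate, had none assigned. None of the 4 T cell, 4 B cell and 4 myeloid markers had one, and of 4 epithelial markers Epcam (39 and 74 reads) and Krt8 (13 and 8 reads) did.

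Rab proteins are small GTPases that mark the membranes of the cell and direct vesicle budding, transport and fusion. Exchange factors load them with GTP on the membrane where they act, effectors bind the GTP-loaded form, GTPase-activating proteins switch it off, and the GDP dissociation inhibitor returns the lipid-anchored protein to the cytosol. In lymphoid cells they carry cytokine receptors through endosomes and move secretory cargo to the plasma membrane.

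Most Rab genes had an accessible region, and it usually lay over the start of the gene. An island was assigned to 42 of the 59 genes (71.2%), against 49.2% of all protein-coding genes, and to 38 (64.4%) it was assigned within 1 kb of a gene end, against 40.4% of all. One island was assigned to 32 genes, 2 islands to 8 genes, 3 to Rab4a and 4 to Rab20. Of the 55 islands, 39 lay at a gene end, and 5 of these also covered the end of a neighbour. RefSeq start windows, which run from 250 bases before to 50 after the start site that the promoter table lists for a gene, were at hand for 48 of the 59 genes. An island covered 35 of these 48 (72.9%), against 45.5% of the 17492 protein-coding genes with such a window. The genes with no window in the table were Rab2a, Rab4a, Rab7b, Rab18, Rab26, Rab27b, Rab30, Rab36, Rab37, Rab38 and Rab44.

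**Figure D1:**
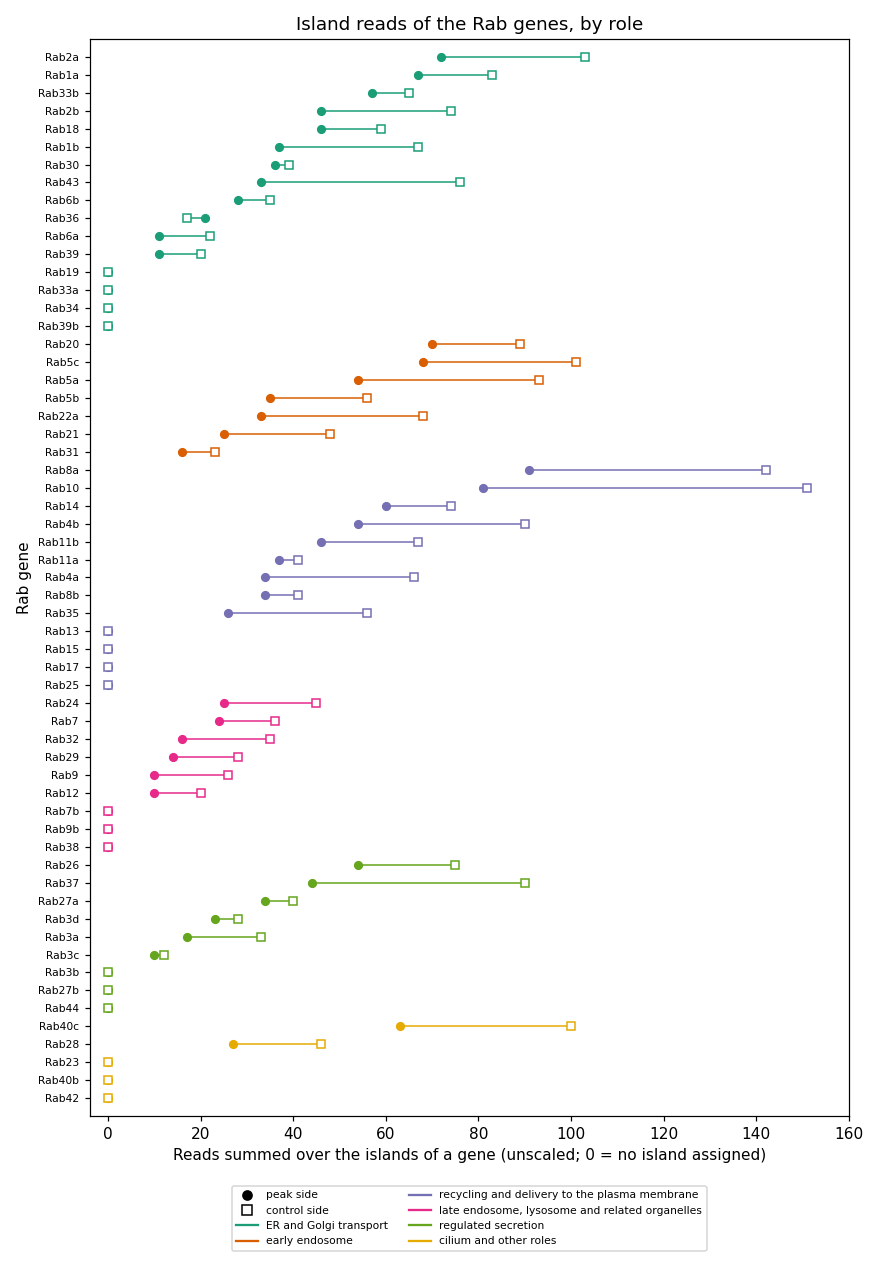
Reads summed over the islands of each of the 59 Rab genes, on the x axis, for the peak side (filled circles) and the control side (open squares, unscaled), with genes on the y axis grouped and coloured by role. Counts run from 10 (Rab3c, Rab9 and Rab12) to 91 (Rab8a) on the peak side, and the 17 genes at 0 had no island assigned.

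The islands over Rab start windows reached to both sides of the start site. All 33 that were assigned to their own gene contained the start site itself. Relative to it, they began at a median of -673 bases (farthest -2020, in Rab24) and ended at a median of 1067 bases (farthest 3000, in Rab8a). The widest Rab islands at a gene end belonged to Rab8a (4600 bases) and Rab24 (4000 bases) and the narrowest to Rab12 (400 bases). Reads per kb of island ordered the genes in another way. The densest islands were those of Rab33b (47.5 peak-side reads per kb), Rab18 (46) and Rab40c (45), and Rab8a, with the most reads, had 19.8. SICER joins 200-base windows, so these limits are those of enriched windows and not of single cut sites.

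**Figure D2:**
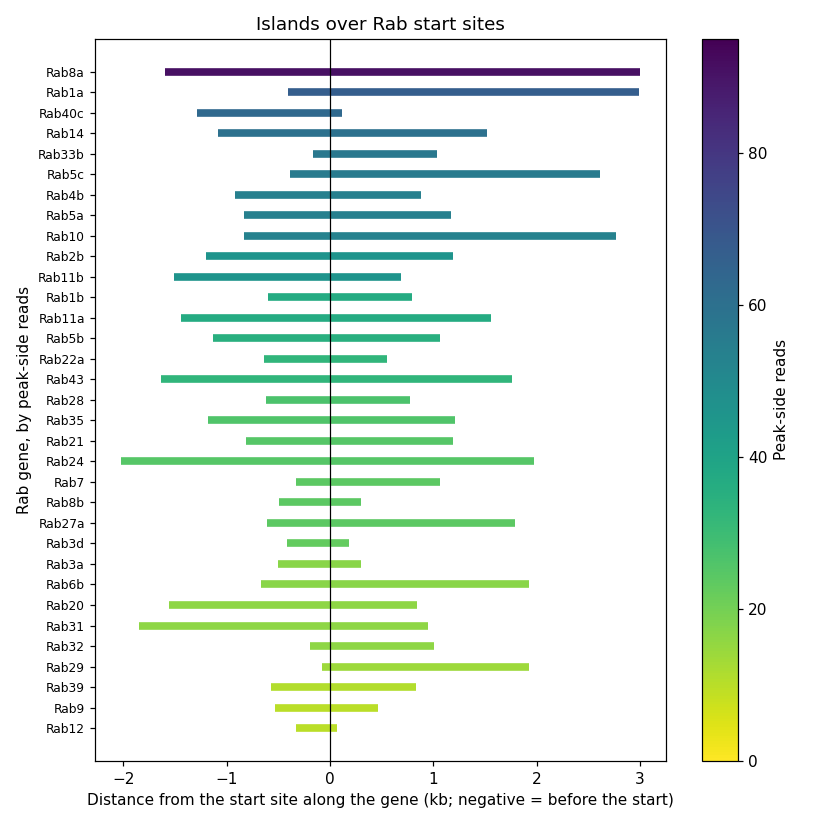
Islands that cover the start window of their own Rab gene, drawn as bars along the distance from the start site in kb (x axis, negative before the start) and ordered by peak-side reads (y axis and colour). Each of the 33 bars crosses the start site, and the bars reach from -2020 to 3000 bases.

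Of the Rab genes of the endoplasmic reticulum and the Golgi, 12 of 16 had an island (49.2% of all protein-coding genes had). They held 14 islands, of which 11 were called, where 82.3% of all islands of the table were. Rab1a and Rab1b act in transport from the endoplasmic reticulum to the Golgi. The Rab1a island (chromosome 11, 20201001 to 20204400) had 67 and 83 reads, with a fold of 2.34 (1.67 to 3.27). That of Rab1b (chromosome 19, 5106201 to 5107600) had 37 and 67 reads, with a fold of 1.6 (1.04 to 2.43), and it also lay within 1 kb of Klc2. Rab1a had more reads on both sides, but its island was wider, and per kb Rab1b had more (26.4 against 19.7 on the peak side).

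Rab2a and Rab2b, which serve the same early secretory route, had gene-end islands of nearly equal size. Rab2a had 48 and 58 reads there (fold 2.4, 1.6 to 3.58) and Rab2b 46 and 74 reads (fold 1.80, 1.22 to 2.64). The Rab2b island covered the end of Tox4 as well, so its reads cannot be split between these neighbours. A second Rab2a island lay 38699 bases away and had 24 and 45 reads (fold 1.55, 0.901 to 2.59).

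Rab33b, a Golgi Rab with a part in autophagy, had 57 and 65 reads over its start (chromosome 3, 51483801 to 51485000), with a fold of 2.54 (1.75 to 3.69). Rab18, found on the endoplasmic reticulum and lipid droplets, had 46 and 59 reads (fold 2.26, 1.5 to 3.38). Rab30, another Golgi Rab, had 36 and 39 reads (fold 2.68, 1.65 to 4.32). The Rab36 island (chromosome 10, 75036801 to 75039000) had 21 and 17 reads, with a fold of 3.58 (1.80 to 7.23), the one Rab island with at least 20 peak-side reads whose peak-side count exceeded its unscaled control-side count. Rab43 had 33 and 76 reads, a fold of 1.26 (0.811 to 1.92) and no call. Rab39 (11 and 20 reads) was not called either.

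Rab6a and Rab6b, which drive transport at the Golgi, differed in where their assigned islands lay. The island over the Rab6a start (42 and 77 reads) also covered the end of Mrpl48 and was given to that gene by the place of its midpoint, so the rule left Rab6a with a separate island 15975 bases away (11 and 22 reads, fold 1.45, 0.635 to 3.12, not called). Rab6b had 17 and 30 reads over its start (fold 1.64, 0.85 to 3.08) and 11 and 5 reads in an island within the gene (chromosome 9, 103180601 to 103181400). The latter had the highest fold of any Rab island, 6.38, on few reads (2.04 to 23.4). Rab19, Rab33a, Rab34 and Rab39b had no island assigned.

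All 7 early endosome genes had an island, where 49.2% of all protein-coding genes did. Of their 11 islands, 10 were called (82.3% of all islands were). Rab5a, Rab5b and Rab5c, which govern fusion of early endosomes, each had an island over the start. Rab5a had 54 and 93 reads (fold 1.68, 1.18 to 2.38), Rab5b 35 and 56 (fold 1.81, 1.15 to 2.81) and Rab5c 56 and 81 (chromosome 11, 100735601 to 100738600, fold 2.01, 1.40 to 2.85). The 3 folds lie within each other's intervals. The Rab5b island covered a neighbour's gene end too, and Rab5c had a wide, thin island within the gene with 12 and 20 reads over 4800 bases (2.50 peak-side reads per kb, the lowest of the Rab islands).

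Rab20, linked to phagosome maturation, was the Rab gene with the most islands. Its start had 16 and 33 reads, a fold of 1.41 (0.723 to 2.63) and no call. The other 3 islands lay within the gene (chromosome 8) and all were called. The widest (11463001 to 11467000) had 31 and 34 reads, with a fold of 2.64 (1.57 to 4.43). Those at 11460601 to 11461400 and 11475001 to 11477000 had 11 and 11 reads (fold 2.90, 1.14 to 7.38) and 12 and 11 reads (fold 3.16, 1.28 to 7.91). The interval of the start island overlaps those of all 3. Rab22a (33 and 68 reads, fold 1.41, 0.899 to 2.16), Rab21 (25 and 48) and Rab31 (16 and 23) had 1 island each, all over the start and all called.

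Of the 13 genes for recycling and delivery to the plasma membrane, 9 had an island, where 49.2% of all protein-coding genes did. Each of the 9 had one at a gene end. They held 13 islands, of which 8 were called, where 82.3% of all islands were. Rab8a, which directs secretory vesicles to the plasma membrane and the cilium, had the largest count of the family, 91 and 142 reads (chromosome 8, 72159601 to 72164200, fold 1.86, 1.41 to 2.44). Rab8b had 24 and 34 reads over its start (fold 2.05, 1.16 to 3.56) and 10 and 7 reads in an island within the gene (fold 4.14, 1.42 to 12.8). Rab14, which acts between endosomes and the Golgi, had 60 and 74 reads (chromosome 2, 35199601 to 35202200, fold 2.35, 1.64 to 3.35). Rab10, which acts in exocytosis, had 53 and 83 reads over its start (fold 1.85, 1.29 to 2.65). A further Rab10 island 9228 bases away had 28 and 68 reads, a fold of 1.19 (0.740 to 1.88) and no call.

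Rab11a and Rab11b are the main Rabs of recycling endosomes. Rab11a had 37 and 41 reads, with a fold of 2.62 (1.63 to 4.19), and Rab11b 46 and 67 reads, with a fold of 1.99 (1.34 to 2.94). The order of their folds was the reverse of the order of their reads, and both intervals overlap. Rab4a and Rab4b serve fast recycling. Rab4b had 54 and 90 reads over its start (fold 1.74, 1.22 to 2.47), in an island that also covered the end of Mia. Rab4a had 14 and 27 reads at its gene end (fold 1.5, 0.729 to 2.97), and 2 islands outside the gene with 11 and 21 and with 9 and 18 reads. None of the 3 Rab4a islands was called. Rab35 (26 and 56 reads, fold 1.35, 0.812 to 2.18) was not called either. Rab13, Rab15, Rab17 and Rab25, several of which are known from epithelial or neural cells, had no island assigned.

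Genes of late endosomes, lysosomes and related organelles had the islands with the lowest median of peak-side reads among the role groups. Per kb these islands ran from 6.25 (Rab24) to 25 (Rab12) peak-side reads. Of 9 genes, 6 had an island, where 49.2% of all protein-coding genes did. These 6 had 1 island each, with a median of 15 peak-side reads, against 24 over all Rab islands and 18 over all islands. Of the 6 islands, 2 were called, where 82.3% of all islands were. These were the islands of Rab24 (25 and 45 reads, fold 1.61, 0.947 to 2.68) and Rab7 (24 and 36 reads, fold 1.93, 1.10 to 3.33). Rab7 is the Rab of late endosomes and lysosomes, and Rab24 is linked to autophagy. The Rab24 island covered the end of Prelid1 too. Those of Rab32 (16 and 35 reads, fold 1.33), Rab29 (14 and 28, fold 1.45), Rab12 (10 and 20, fold 1.45) and Rab9 (10 and 26, fold 1.12, 0.480 to 2.39) were not called. Rab9 had the lowest fold of any Rab island. Rab7b, Rab9b and Rab38 had no island.

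Of the 9 genes of regulated secretion, 6 had an island, where 49.2% of all protein-coding genes did. Of their 9 islands, 7 were called, close to the 82.3% of all islands. Rab27a, which docks secretory lysosomes and cytotoxic granules at the plasma membrane, had 24 and 30 reads over its start (chromosome 9, 73044201 to 73046600, fold 2.32, 1.30 to 4.11) and 10 and 10 reads in an island within the gene (fold 2.90, 1.08 to 7.76). Its paralogue Rab27b had no island, and the nearest one lay 182731 bases from the gene. Rab26 had islands at both gene ends, with 36 and 48 reads (fold 2.18, 1.37 to 3.42, an island that also covered the end of Traf7) and with 18 and 27 reads (fold 1.93, 1.00 to 3.64). Rab37, a Rab of secretory granules, was assigned 2 islands, both within the gene. One had 34 and 76 reads, a fold of 1.30 (0.839 to 1.97) and no call. The other had 10 and 14 reads and was called. A further island, over Rab37 or within 1 kb of it, was given to another gene. That island held more reads on both sides than the 2 assigned ones together.

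The Rab3 genes, known for regulated exocytosis in neurons and secretory cells, fell on both sides. Rab3d had 23 and 28 reads over its start (fold 2.38, 1.31 to 4.29), and Rab3a had 17 and 33 reads (fold 1.49, 0.781 to 2.76) and was not called. The one island given to Rab3c lay 34587 bases outside the gene and held 10 and 12 reads, and Rab3b had none. Rab44, a large Rab of mast cell and other granules, had none. Among the remaining genes, Rab40c had 63 and 100 reads over its start (chromosome 17, 25919601 to 25921000, fold 1.83, 1.31 to 2.53) and Rab28 27 and 46 reads (fold 1.70, 1.02 to 2.80). Rab40b, Rab42 and Rab23, a Rab of the Hedgehog pathway and the cilium, had none.

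Of the 17 genes with no assigned island, 4 were nevertheless touched by an island, or had one within 1 kb, that was given to a neighbour. Rab13 had its start window covered by an island given to Rps27 (25 and 39 reads). Rab33a had its annotated 5′ end covered by an island given to Aifm1 (16 and 28 reads), while the start that the promoter table lists lies farther into the gene and was not covered. Rab19 and Rab40b had islands given to Slc37a3 (31 and 44 reads) and Wdr45b (25 and 40 reads) at 509 and 921 bases. When islands were instead counted over each gene body and 1 kb around it, 45 of the 59 genes (76.3%) had one, against 52.9% of all protein-coding genes. For the other 13 unassigned genes, the nearest island lay 4019 (Rab42) to 182731 (Rab27b) bases away, with a median of 30070. Of the 4 Rab genes on the X chromosome, Rab9 had an island, while Rab9b, Rab33a and Rab39b had none assigned. On that chromosome 21.1% of protein-coding genes had one.

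Paralogues were compared within the 14 sets of Rab genes that share a number, which hold 31 of the 59 genes. In 7 sets every member had an island (Rab1, Rab2, Rab4, Rab5, Rab6, Rab8 and Rab11), and in 7 some members did (Rab3, Rab7, Rab9, Rab27, Rab33, Rab39 and Rab40). No set was without any. With that body rule, Rab33 and Rab40 had one at both members and Rab3c lost its own.

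The 12 pairs of paralogues that both had an assigned island were compared by their summed reads. For peak-side reads, the 95% counting interval of the ratio excluded 1 in 7 of the 12, and for control-side reads in 7 of the 12. Rab8a had 2.68 times the peak-side reads of Rab8b (1.79 to 4.09) and 3.46 times its control-side reads (2.43 to 5.03). Rab5c had 1.94 times the peak-side reads of Rab5b (1.27 to 3.01), and Rab1a 1.81 times those of Rab1b (1.19 to 2.78). With intervals widened for 12 comparisons, 2 pairs still excluded 1, Rab8a over Rab8b (1.51 to 5.00) and Rab5c over Rab5b (1.06 to 3.68). Summed over its islands, Rab8a had 19.8 and Rab8b 18.9 peak-side reads per kb, so the larger count came with a wider island. The island over the Rab8b start, taken alone, was denser than that of Rab8a, with 30 against 19.8 per kb. Rab5c had 8.72 per kb over its 2 islands and Rab5b 15.9, so per kb their order turned when islands were summed. Over the starts alone it did not turn, with 18.7 per kb for Rab5c and 15.9 for Rab5b.

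The folds of the same pairs were compared as well. The ratio of the folds of the 2 paralogues had an interval that included 1 in each of the 12 pairs, from 0.622 for Rab3a over Rab3c (0.198 to 1.97) to 1.59 for Rab6b over Rab6a (0.615 to 4.29). The intervals are wide, and differences inside them were not detectable at this depth. They combine the counts of both sides, so including 1 does not show that folds differed less than reads. The Rab6, Rab2 and Rab4 pairs depended on which islands were counted. By the body rule, Rab6a had 42 and 77 reads against 28 and 35 for Rab6b, so the order of their peak-side reads turned (ratio 1.5, 0.908 to 2.51). Rab2a then had 48 peak-side reads against 46 for Rab2b (ratio 1.04, 0.682 to 1.6). Rab4b had 6.36 times those of Rab4a (3.60 to 12.1), against 1.59 times (1.02 to 2.52) by assigned islands. By the body rule, the 89 peak-side reads of Rab4b included an island given to another gene. The islands of Rab4a outside the gene were not counted. The control-side ratio was then 5.74 (3.80 to 8.99) and the ratio of the folds 1.11 (0.528 to 2.41).

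**Figure D3:**
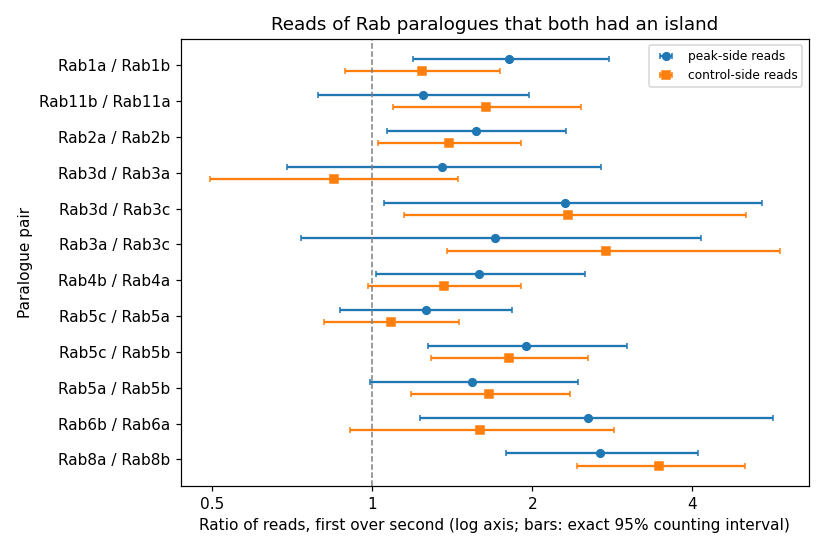
Ratio of reads between Rab paralogues that both had an assigned island, for 12 pairs (y axis, first gene over second), on a log axis, with circles for peak-side and squares for control-side reads and bars for the exact 95% counting interval. The interval lies above 1 for 7 pairs on each side, with Rab8a over Rab8b at 2.68 and 3.46.

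In 5 sets of paralogues the start window of 1 member was covered by an island and that of another was not. Their windows were compared for CpG dinucleotides, the cytosine-guanine steps that are dense in CpG island promoters. In the Rab40, Rab33, Rab3 and Rab39 sets the covered members had more CpGs, and in the Rab9 set the uncovered member had more. The 250 bases before the start site are shown for the 4 sets with the most reads at a covered member, which leaves out Rab9, with each CpG in capitals and the rest in lower case. They were read from the RefSeq table of GRCm38.p6, the same assembly as mm10, and run 5′ to 3′ along the gene. In each set the covered member stands first. For Rab3 the covered member with the most reads and the uncovered one with the fewest CpGs were taken, so the size of that contrast comes in part from the choice.
Rab40c, chr17:25919715-25919964, minus strand: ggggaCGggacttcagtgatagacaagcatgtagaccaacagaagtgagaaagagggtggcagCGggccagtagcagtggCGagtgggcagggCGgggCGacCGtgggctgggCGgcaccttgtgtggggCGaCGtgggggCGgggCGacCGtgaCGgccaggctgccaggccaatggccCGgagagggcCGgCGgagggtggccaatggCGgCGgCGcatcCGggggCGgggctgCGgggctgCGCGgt
Rab40b, chr11:121388252-121388501, minus strand: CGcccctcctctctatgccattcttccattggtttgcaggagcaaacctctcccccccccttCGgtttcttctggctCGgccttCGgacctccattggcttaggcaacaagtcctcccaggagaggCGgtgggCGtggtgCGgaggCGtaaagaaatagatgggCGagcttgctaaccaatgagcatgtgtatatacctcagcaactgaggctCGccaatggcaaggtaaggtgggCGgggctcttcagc
Rab33b, chr3:51483716-51483965, plus strand: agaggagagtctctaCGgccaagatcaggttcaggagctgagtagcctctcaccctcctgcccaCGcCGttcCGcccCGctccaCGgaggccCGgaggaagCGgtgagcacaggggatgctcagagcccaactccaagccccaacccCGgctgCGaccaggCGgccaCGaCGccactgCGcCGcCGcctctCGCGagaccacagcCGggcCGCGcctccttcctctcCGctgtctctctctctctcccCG
Rab33a, chrX:48519035-48519284, plus strand: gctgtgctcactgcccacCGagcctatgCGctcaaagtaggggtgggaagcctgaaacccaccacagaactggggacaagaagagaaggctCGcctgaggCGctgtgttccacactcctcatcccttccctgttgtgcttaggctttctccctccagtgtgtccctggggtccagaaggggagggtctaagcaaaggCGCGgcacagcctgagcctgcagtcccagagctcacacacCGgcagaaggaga
Rab3d, chr9:21918184-21918433, minus strand: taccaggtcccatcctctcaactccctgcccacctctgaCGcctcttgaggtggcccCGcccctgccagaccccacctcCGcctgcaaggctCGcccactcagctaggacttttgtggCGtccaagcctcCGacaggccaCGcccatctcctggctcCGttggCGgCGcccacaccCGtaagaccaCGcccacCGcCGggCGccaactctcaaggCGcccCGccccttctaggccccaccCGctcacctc
Rab3b, chr4:108878820-108879069, plus strand: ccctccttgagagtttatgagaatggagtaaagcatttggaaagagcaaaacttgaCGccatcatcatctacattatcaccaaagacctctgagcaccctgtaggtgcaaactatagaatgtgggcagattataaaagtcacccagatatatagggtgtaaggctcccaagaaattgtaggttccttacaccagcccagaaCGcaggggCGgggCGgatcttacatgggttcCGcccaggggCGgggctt
Rab39, chr9:53706233-53706482, minus strand: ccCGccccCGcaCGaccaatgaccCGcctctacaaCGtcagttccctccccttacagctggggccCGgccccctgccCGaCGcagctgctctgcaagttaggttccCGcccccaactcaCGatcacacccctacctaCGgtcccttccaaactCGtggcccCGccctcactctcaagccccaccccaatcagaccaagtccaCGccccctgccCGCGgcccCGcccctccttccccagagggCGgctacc
Rab39b, chrX:75578232-75578481, minus strand: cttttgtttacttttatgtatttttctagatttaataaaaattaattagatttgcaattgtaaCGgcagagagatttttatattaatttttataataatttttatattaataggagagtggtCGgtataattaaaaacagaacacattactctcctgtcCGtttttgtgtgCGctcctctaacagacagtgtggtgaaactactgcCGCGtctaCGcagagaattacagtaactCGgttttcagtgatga

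In these 250 bases Rab40c had 24 CpGs and Rab40b 11. Rab33b had 23 and Rab33a 7. Rab3d had 18 and Rab3b 6, and Rab39 had 18 and Rab39b 8. Of the sets shown, the GC content of these bases differed by the widest margin between Rab39 (68.8%) and Rab39b (31.6%). The Rab9 set ran the other way. Over the 300-base window, covered Rab9 had 9 CpGs and a GC content of 53.3%, and uncovered Rab9b had 17 CpGs and 64.3%. All 4 Rab3 windows, counted the same way, had 26 (Rab3d) and 18 (Rab3a) CpGs where covered and 11 (Rab3c) and 8 (Rab3b) where not. For Rab33a the listed start lies inside the annotated gene, and the annotated 5′ end upstream of it was under an island, so its place as an uncovered member depends on the transcript.

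Over all 48 Rab genes with a start window of 300 bases, the 35 covered windows had a median of 25 CpGs (9 to 43) and the 13 uncovered ones a median of 10 (5 to 38). The same held over all protein-coding genes, with a median of 23 CpGs in 7960 covered and 4 in 9532 uncovered windows, so the contrast is not particular to Rab genes. With over 20 CpGs, 22 of 23 Rab windows were covered (95.7%), against 79.7% of all. With 11 to 20, 11 of 16 were (68.8%, against 67.0%), and with 6 to 10, 2 of 8 (25%, against 25.6%). Had each class of Rab windows been covered at the share of all genes, 31.1 of the 48 would have been covered, where 35 were. Rab15, with 38 CpGs, was the one uncovered Rab window above 20, followed by Rab23 (20), Rab40b (19), Rab9b (17), Rab34 (13) and Rab3c (11). At the other end, Rab9 (9 CpGs) and Rab32 (10 CpGs) had covered windows, and neither island was called.

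**Figure D4:**
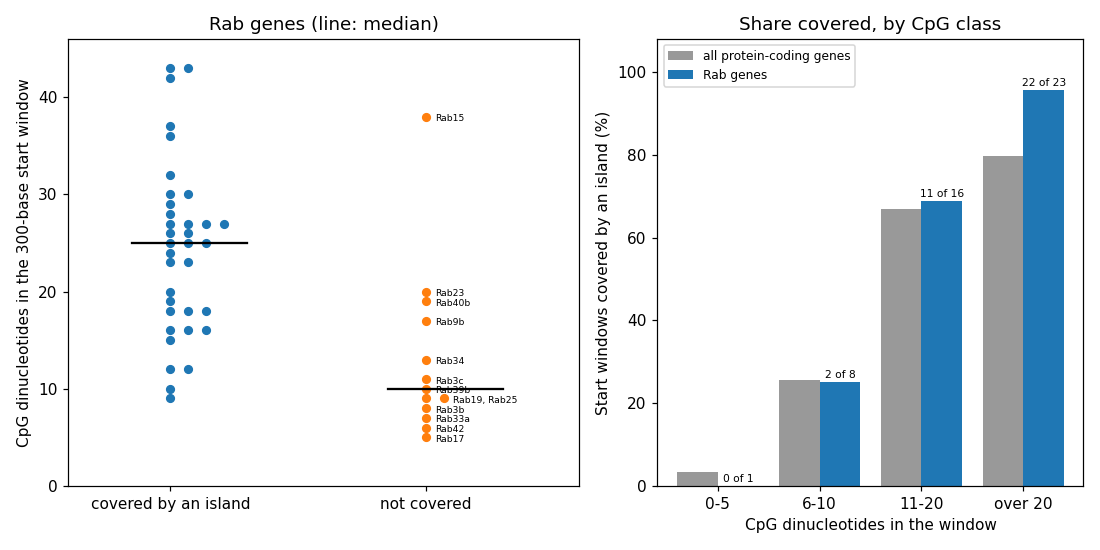
Left, CpG dinucleotides in the 300-base start window of each Rab gene (points), for windows covered by an island and windows not covered, with the median as a line (25 and 10). Right, percent of start windows covered by an island in 4 classes of CpG count, for all protein-coding genes (grey) and Rab genes (blue, with counts); both rise with the CpG count.

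Short motifs were searched on both strands of the same windows, as a description of their letters. The SP and KLF motif GGGCGG was present in 27 of 35 covered and 7 of 13 uncovered Rab windows. Over all genes it was in 46.3% of windows, 71.1% of covered and 25.7% of uncovered ones. The ETS motif CCGGAA was present in 11 of 35 and 2 of 13, among them Rab8a, Rab10, Rab11a and Rab14. Over all genes the shares were 19.1% of all, 32.8% of covered and 7.71% of uncovered windows. The NF-Y motif CCAAT was present in 19 of 35 and 4 of 13 (39.2% of all, 40.5% of covered and 38.1% of uncovered ones). Of the 2 forms of the TCF and LEF motif, ATCAAAG was in no Rab window (3.28% of all) and TTCAAAG was in those of Rab7, Rab31 and Rab3c (4.74% of all). The TATA motif TATAAA was in 1 of 35 covered windows, that of Rab7, and in 3 of 13 uncovered ones, Rab3b, Rab39b and Rab42. Over all genes it was in 13.3% of windows, 5.87% of covered and 19.6% of uncovered ones. Other motifs searched were rarer. In covered and uncovered Rab windows, YY1 was in 5 and 2, E-box in 4 and 1, and RUNX in 2 and 0. CRE was in 1 and 1, AP-1 in 0 and 2, and NRF1 in none. In that order, 6.35%, 7.91%, 4.83%, 2.33%, 7.03% and 1.33% of all windows had them. GGGCGG and CCGGAA each contain a CpG.

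By fold the Rab islands lay close to other islands at gene ends. The 39 Rab gene-end islands had a median fold of 1.83 (interquartile range 1.55 to 2.22), while all 9236 gene-end islands had a median of 1.86 (1.54 to 2.27). The 16 Rab islands away from gene ends had a median of 1.91 (1.5 to 2.90), against 2.28 (1.73 to 3.12) for 6082 such islands. Of these 16 Rab islands, that of Rab21 covered its start window, 1019 bases from the annotated gene end. The 9 others within Rab genes, several of them in Rab20, had a median fold of 2.90 and a median of 11 peak-side reads. The 6 outside the genes had a median fold of 1.48. Over all 55, the median was 1.83 and the pooled fold 1.87 (1.76 to 1.99), and no Rab island had a fold under 1, which 1.67% of all islands had. By read class, the Rab median fold was below that of all islands in each class under 40 peak-side reads. It was 1.74 against 2.23 with 10 to 14 reads and 1.57 against 2.04 with 15 to 19. With 40 to 59 reads (1.99 against 1.93) and 60 to 99 (2.10 against 1.90) it was higher. At gene ends, where folds were lower, lay 39 of the 55 Rab islands but 9236 of all 16584. The read classes mix places and so do not compare like islands.

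Of the 55 Rab islands, 40 (72.7%) were called, against 82.3% of all islands. At gene ends 29 of 39 (74.4%) were, against 80.8% of all gene-end islands. A called island was found at 32 of the 42 genes (76.2%), against 85.6% of all genes with an island. The calls rest on the factor of 0.345. They also take the scaled control-side count as exact, which the counting intervals do not. Of the 55 Rab islands, 31 had a counting interval of the fold above 1. With a factor that makes both sides equal over the whole table, 2 of the 55 were called (those of Rab36 and of Rab6b within the gene), against 9.19% of all islands, and the median fold was 0.956. The 15 islands without a call included 11 with under 20 peak-side reads, and the other 4 belonged to Rab10 (the outer island), Rab35, Rab37 and Rab43. These 4 had 26 to 34 peak-side reads and the 4 smallest folds among Rab islands with at least 20, from 1.19 to 1.35. The largest folds at that depth were those of Rab36 (3.58), Rab30 (2.68), Rab20 (2.64) and Rab11a (2.62), and their intervals overlap.

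**Figure D5:**
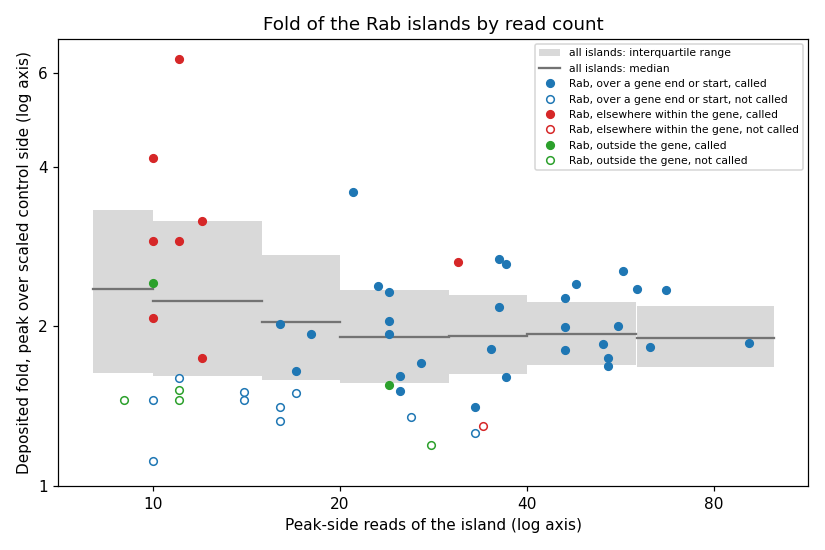
Deposited fold (y axis, log) against peak-side reads (x axis, log) for the 55 Rab islands, coloured by place, filled where called; grey bands and lines give the interquartile range and median fold of all islands in classes of read count. The Rab islands run from 1.12 to 6.38, the spread narrows with reads, and the 4 open points above 20 reads are the uncalled islands of Rab10, Rab35, Rab37 and Rab43.

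The genes that act on Rab proteins were also widely accessible. Among genes for prenylation, escort and extraction from membranes, 7 of 10 had an island (49.2% of all protein-coding genes had). Of 7 islands 4 were called, where 82.3% of all islands were, and the escort protein genes Chm and Chml had none. The called counts of the 3 lists that follow are to be read against that share too. Among exchange factors, 39 of 45 had an island and 47 of 59 islands were called, led by Trappc9 (110 and 178 reads, pooled fold 1.79, 1.40 to 2.29), Rin3, an activator of Rab5 (91 and 97 reads, 2.72, 2.02 to 3.66), and Sh3bp5, an activator of Rab11 (80 and 102 reads, 2.27, 1.68 to 3.08). Among GTPase-activating proteins, 32 of 36 had an island and 47 of 56 islands were called, led by Tbc1d14 (82 and 114 reads), Rabgap1l (80 and 114 reads) and Evi5l (77 and 93 reads). Among effectors, 38 of 52 had an island and 47 of 52 islands were called, led by Rab11fip5 (84 and 112 reads), Rab11fip4 (66 and 126 reads) and Uso1, a Rab1 effector at the Golgi (66 and 84 reads).

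The 14 effectors without an island included 9 of Rab3 and Rab27. The effectors of these Rabs, 13 in all, were picked out after the values were seen, so their count is a description only. An island was assigned to 4 of them, against 49.2% of all protein-coding genes. Unc13d, which primes cytotoxic granules for release, had 16 and 29 reads at its gene end (fold 1.6, 0.812 to 3.05), Sytl2 13 and 12 (fold 3.14, 1.32 to 7.53), Myrip 17 and 9 and Rph3al 45 and 73 over 3 islands. Sytl1, Sytl3, Sytl4, Sytl5, Mlph, Exph5, Rph3a, Rims1 and Rims2 had none.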

How the data were processed

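DNase-seq of 4 libraries (2 per group) was available as 1 table of 16584 islands. The submitters' processing notes name the aligner Bowtie2 (2.4.2), the island caller SICER (2.0) and the build mm10. The authors deposited whole read counts for a peak side and a control side, with a fold, a p-value and an FDR (q-value) for each island, per the file headers. All folds were recomputed from the counts with the factor 0.345 (relative tolerance 1e-06), and the p-values of folds over 1 as the upper tail of a Poisson distribution. No label says which libraries stand on a side or whether replicates were pooled, so the planned count models between genotypes were not run and no test was made.

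Positions were made 1-based. Islands were given to the nearest end of a protein-coding gene within 50 kb (RefSeq, GRCm38.p6, 21887 genes outside mitochondrial DNA), a tie going to the end nearest the island's midpoint. Start windows came from the RefSeq promoter table of the same assembly, 1 per gene. Each Rab gene was placed in 1 role group, which the labels do not give. Python 3.11.15, pandas 2.3.3, NumPy 2.4.6 and SciPy 1.17.1 were used, and assignment and intervals were tested on simulated data. Named in full were all paralogues, the 8 islands with most peak-side reads, the 4 largest and 4 smallest folds with at least 20 reads, and every uncalled island. Of the 46 listed exchange factors, St5 had no match. Protein sequences were not used here, and the driver of Cre and 1 gene family examined are not reported here. The members and lists were chosen with earlier results of these data known.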

Additional observations from a re-analysis of the deposited data

How the results depend on the processing

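The 4 libraries cannot be told apart in the table, so the planned comparison of genotypes, its other models and its leave-one-out fits were not run. No paired analysis was possible because neither side of the table belongs to a numbered library. The number of Rab genes with an island was 31 to 45 under other windows, read minimums and handling of ties, against 42, and of those with one at a gene end 28 to 42, against 38. Sets with an island at some members numbered 5 to 8, against 7. Scaling the control side by the reads in all islands left 2 called Rab islands, Rab6b and Rab36, in place of 40 (9.19% of all islands were then called) and a median fold of 0.956 in place of 1.83. By construction the summed sides are then equal over the table. With intervals widened for 12 pairs, 2 pairs excluded 1 in place of 7. With only the island with most reads of each gene, 5 pairs did. Giving ties to both genes, gene bodies for pairs, and gene-end islands alone for folds and calls were chosen after seeing the data. Reads limit single islands, since 22 of 55 had under 20 on the peak side.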

Other observations

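Another family of small GTPases was also widely accessible. Of 29 Arf, Arl and Sar genes, which act in vesicle coats and in transport of organelles, 25 had an island (86.2%, against 71.2% of Rab genes and 49.2% of all protein-coding genes). Arl15 had 85 and 109 reads over 4 islands (pooled fold 2.26, 1.68 to 3.03), Arl4a 82 and 113 over 4 (2.10, 1.56 to 2.82) and Arf4 72 and 118 in 1 (1.77, 1.30 to 2.39). Arf3, Arl1, Arl11 and Arl13a had none. The difference from the Rab genes was not tested.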
